A study of Drosophila melanogaster with 18 samples.

Results

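Variants called from embryo RNA were examined in 8 genes of the cytoskeleton, the sarcomere and molecular motors. The genes were Msp300, shot, Unc-89, hts, cmet, Klp31E, cana and ninaC. They were chosen by name because they appear in the deposited variant lists of Drosophila melanogaster mutant lines, so their presence there is not a finding, and repeated entries of a variant were merged. They are 8 of 129 listed genes and carry 12 of 173 distinct variants, each of them listed once. The study took polyadenylated RNA from whole embryos of 6 lines of a forward genetic screen for muscle morphogenesis, in 18 samples. Embryos of all lines came from a 3 h egg lay at 25 °C, were aged for 7 h, were labelled stage 12, and were sorted by hand as homozygotes by their lack of a fluorescent balancer chromosome. The analysis used the lists of 3 lines, of which sj266 had 2 samples and sj440 and sj461 had 3 each. By their titles these are 2 replicates a line, and in sj440 and sj461 a replicate was deposited as 2 samples. The labels give no genotype beyond the line's name, name no mutagen and hold no unmutagenised control. Each line has 1 list over its samples, which the study's design text counts as technical replicates, so no value below has a replicate error. Read depth is unknown, and as the genes were chosen with the lists known, no test was made.

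The cytoskeleton gives a muscle its shape, holds its nuclei in place and anchors its ends. Giant proteins with spectrin repeats link actin filaments to the nuclear envelope, to microtubules and to the membrane. Kinesins walk along microtubules, and myosins along actin. At stage 12 the germ band retracts and striated sarcomeres have not yet formed.

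In Msp300 and Unc-89 all listed changes were missense. A splice donor was changed in shot and cmet, a splice acceptor in hts and Klp31E, and the start codon in ninaC, while cana lost 3 bases in frame. Of the 12 variants, 7 lay in 4 genes of sj440, 5 in 5 genes of sj461 and 0 among the 38 variants of sj266. A count of 0 allows a share of up to about 7.89%, taken as 3 divided by 38 (counting error only, not an exact interval). As the genes were chosen with the lists known, nothing is read from this limit. Msp300 was the only member listed in more than 1 line (1 of 8, against 14 of the 129 listed genes), with different changes in each. No variant of the 8 genes was therefore identical between lines. In other listed genes the same residue change was named in sj266 and in sj440, such as N264S of pyr and D444E of ord. The share of identical variants over all listed genes was not counted, so nothing is read from their absence in the 8 genes.

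The coding changes on arm 2L that could be read from the lists are shown as codons of the RNA strand, with the changed bases in capitals.
Msp300 codons 94 and 95, reference: gaGCac
Msp300 codons 94 and 95, sj440: gaTAac
Msp300 codon 3021, reference: Acc
Msp300 codon 3021, sj440: Tcc
Msp300 codon 8249, reference: aAa
Msp300 codon 8249, sj461: aTa
cana codons 1204 and 1205, reference: aGATct
cana codons 1204 and 1205, sj461: act
ninaC codon 1, reference: aTg
ninaC codon 1, sj461: aGg

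Msp300 encodes a giant nesprin that is anchored in the outer nuclear membrane and positions nuclei in muscle. It held 4 changes, a number reached by 3 of the 129 genes and exceeded by none. E94D (2L, position 5109427) and H95N (2L, 5109428) lie on adjacent bases and were both listed in sj440 with a quality of 55, the score that the variant caller gave each call. They fall in neighbouring codons, so that on 1 molecule they would read Asp-Asn in place of Glu-His, the same residues as when read apart. Whether they lie on 1 molecule cannot be seen in the list. T3021S (2L, 5166402) was listed in sj440 with a quality of 30.4. K8249I (2L, 5182087) was listed in sj461 with a quality of 27.4, the lowest score among the 12.

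The 4 changes of Msp300 were spread over its gene, which spans positions 5100877 to 5207002 of 2L. The pair at residues 94 and 95 lay at 8.06% of this span from the 5′ end, T3021S at 61.7% and K8249I at 76.5%. The pair was numbered on another transcript (FBtr0303383) than T3021S and K8249I (FBtr0303384), so these residue numbers do not share a scale. T3021S and K8249I lie 15685 bp apart in the genome and also 15685 bases apart in the transcript. The annotated transcript therefore has no intron between them, and 5228 residues separate them. Residue 8249 was the highest residue number of the lists, followed by residue 2539 in the cadherin gene ds. The protein of FBtr0303384 is at least that long, so the 4 changes would amount to at most 0.485 per 1000 of its residues. The pair was numbered on the other transcript, whose protein length is unknown, so this limit does not hold for that protein.

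Unc-89, named Obsc in the RefSeq gene table, encodes obscurin, a giant protein of the M-line of the sarcomere. It held S568P (2R, 24009775) and A531V (2R, 24009885) in sj440, both with a quality of 30.4. The changes lie 110 bp apart in the genome and 110 bases apart in the transcript, with no intron between them. S568P sits at 23.9% and A531V at 23.4% of the span of the gene from its 5′ end.

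Equal scores were common for changes that lie close together. Among 23 pairs of neighbouring single-base changes in 1 gene and line, over all listed genes, 16 lay within 100 bp, and 10 of these had equal quality. Of the 7 pairs farther apart, 2 had equal quality, and the Unc-89 pair was among them. All 5 pairs on adjacent bases had equal quality. Besides Msp300, adjacent pairs of sj440 lay in CG13324 (27.4 for each change), CG31897 (26.4) and Pvr, a receptor of growth factors (100). The score of 30.4 that T3021S and both Unc-89 changes shared was given to 9 of the 68 variants of sj440, so that equal scores also occurred between genes.

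shot encodes a spectraplakin, which cross-links actin and microtubules and is needed in the tendon cells to which muscles attach. Its splice donor change in sj461 (2R, 13874857, quality 57) lay at 86.4% of a gene of 77874 bp. hts encodes adducin, which caps actin filaments and joins them to spectrin. Its splice acceptor change in sj440 (2R, 19408420, quality 54) lay at 59.1% of a gene of 27872 bp. The gene table gives 22 transcripts for shot and 16 for hts. The lists name 1 transcript for each variant, so how many transcripts use the changed site was not determined.

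The 3 kinesin genes each held 1 variant. cmet and cana encode relatives of CENP-E, the kinesin that moves chromosomes at the kinetochore. They are neighbours on 2L with 777 bp and no other gene of the table between them, and are annotated on opposite strands. The splice donor change of cmet (2L, 11262817, quality 56) belonged to sj440. The deletion in cana (2L, 11274850 to 11274852, quality 127) belonged to sj461, 12032 bp away. It replaces Arg-Ser at residues 1204 and 1205 by Thr. Klp31E is a relative of KIF21, a kinesin that in mammals dampens microtubule growth. Its splice acceptor change in sj461 (2L, 10416503, quality 40.4) lay at 50% of a gene of 4975 bp.

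ninaC encodes a class III myosin with a kinase domain, known from photoreceptors. Its start codon carried M1R in sj461 (2L, 7378402, quality 78), after 180 bases of annotated leader. It was 1 of 3 listed variants that changed a start or stop codon. Whether translation can begin at a later codon was not tested.

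**Figure D1:**
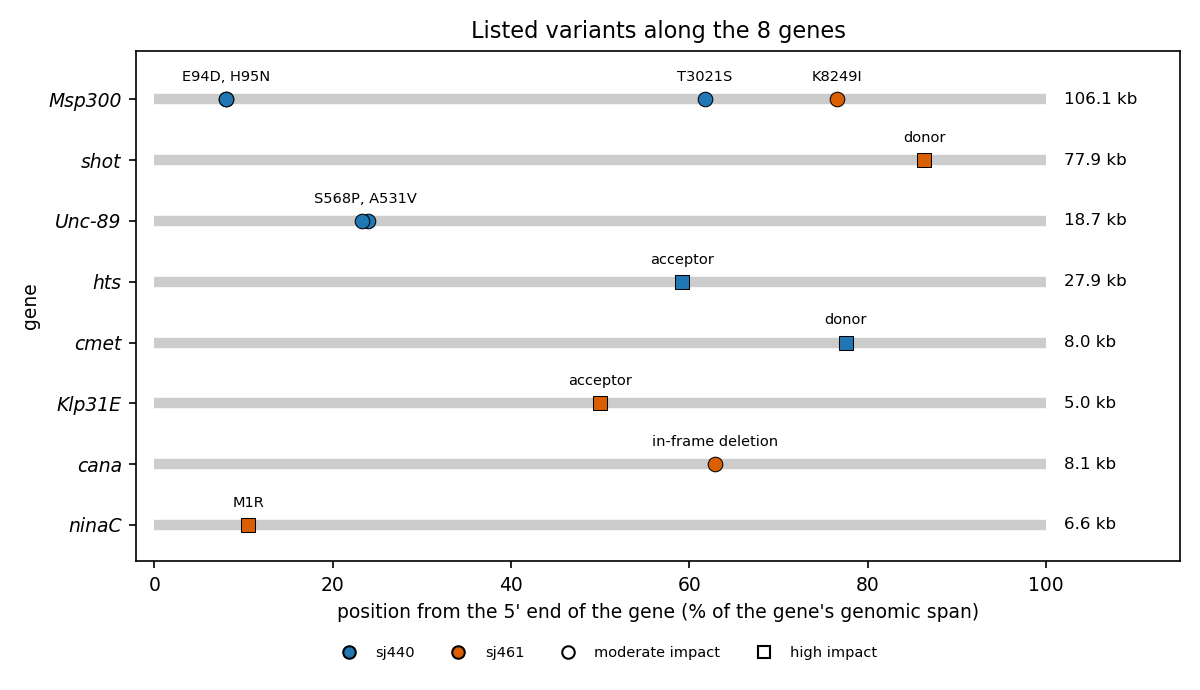
Position of the 12 variants along the 8 genes, as percent of each gene's genomic span from its 5′ end, with the span in kb at the right. Circles are changes of moderate impact and squares of high impact; blue is sj440 and orange sj461. The variants of sj440 and sj461 lie from 8.06% (Msp300) to 86.4% (shot).

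High impact, the annotation's class for splice sites and for lost starts or gained stops, was given to 5 of the 12 variants, or 41.7% (exact 95% interval 15.2 to 72.3), against 28.9% of all 173. In sj440 it was 2 of 7 (hts and cmet), where 30.9% of all variants of the line were of high impact. In sj461 it was 3 of 5 (shot, Klp31E and ninaC), where the share was 20.9%, and in sj266, where none of the 8 genes was listed, it was 39.5%. The interval of the 8 genes holds the share of all variants, but this is no test, as the 12 are among the 173. The interval also counts changes on adjacent bases (E94D and H95N) as independent. Splice-site changes made up 4 of the 5, and without them 1 of 8 variants, in ninaC, was of high impact (12.5%, against 2.38% of all). The changed bases of a splice site are cut out of mature RNA with the intron, so the reads behind the calls in shot, hts, cmet and Klp31E are unknown, and no change in splicing was measured.

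The 4 splice-site changes all altered the A or T of the invariant pair of bases, T at the donors of shot and cmet and A at the acceptors of hts and Klp31E. Among all 47 listed splice-site variants, 18 altered an A or T and 29 a G, a split that was looked up after the values of the 4 had been seen. Their quality ranged from 40.4 to 57 with a median of 55, and that of all 47 had a median of 54 and reached 139.

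Of the 11 single-base changes, 5 exchanged A:T for T:A, in Msp300 (T3021S and K8249I), hts, cmet and Klp31E. The share over all 145 listed single-base changes was 19.3%. In sj440 it was 3 of 7 in the 8 genes and 12 of 59 over the line. In sj461 it was 2 of 4 and 14 of 58. The changes of hts, cmet and Klp31E were also among the splice-site changes counted above, so these counts overlap. A change of a G:C to an A:T pair, the most frequent type of the lists with 43 of 145, was found in 1 of the 11, A531V of Unc-89. The others were 2 exchanges of G:C for T:A (E94D and H95N), 2 of A:T for C:G (shot and ninaC) and 1 of A:T for G:C (S568P). None read as A to G on the RNA strand, the change that adenosine-to-inosine editing of RNA gives, against 10 of all 145.

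The missense changes differed in how alike the exchanged residues are. BLOSUM62, a score from protein alignments that is higher for residues that replace each other more often, was 2 for E94D, 1 for H95N and T3021S, 0 for A531V, -1 for S568P and -3 for K8249I. A score of 0 or more was thus found for 4 of 6, against 66.3% of the 95 listed missense changes. K8249I was 1 of 7 listed changes with a score of -3 or less. The score covers the residues alone and no effect on a protein was measured.

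**Figure D2:**
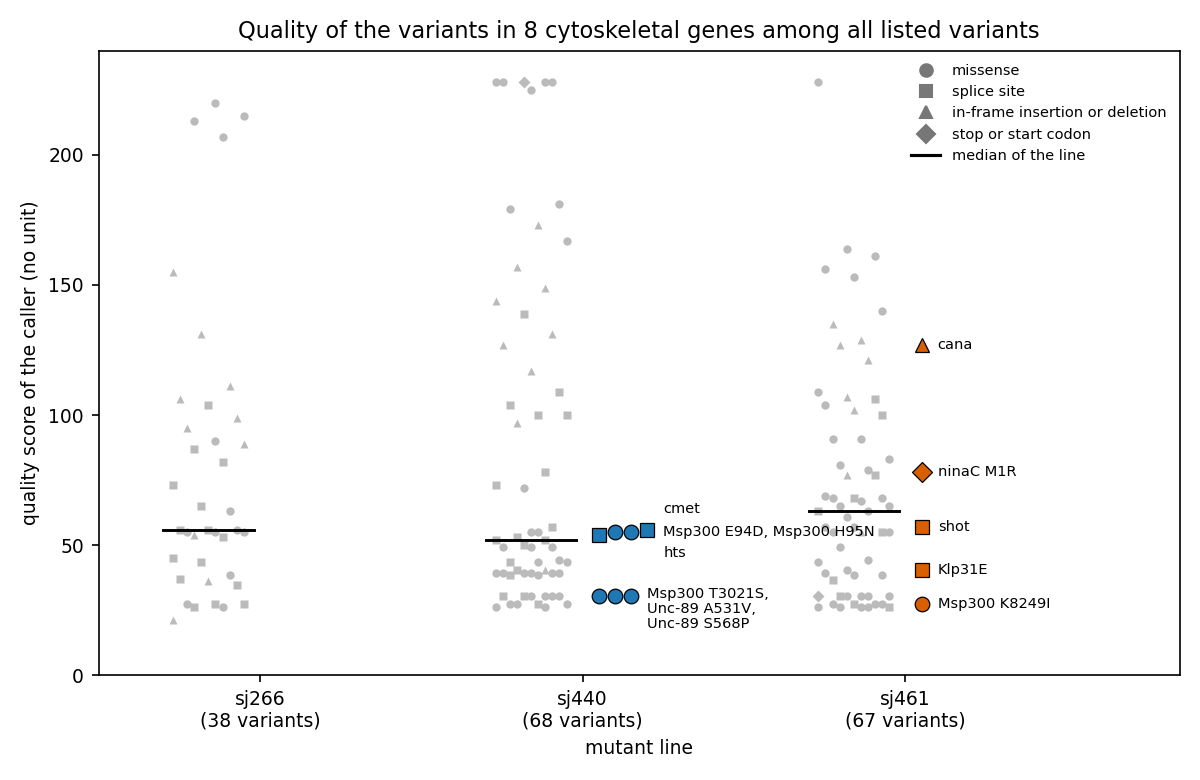
Quality score of every listed variant by line, with the variants of the 8 genes as large coloured symbols and the other listed genes in grey; symbols give the kind of change and black bars the median over all variants of the line. In sj440 the 7 large symbols lie between 30.4 and 56, and in sj461 the 5 large symbols lie between 27.4 (Msp300) and 127 (cana).

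The highest score among the 12, 127 for cana, lay below the 228 that other variants reached in both lines. In sj440 their quality ran from 30.4 to 56, with a median of 54, against a median of 52 over the line. In sj461 it ran from 27.4 to 127, with a median of 57, against 63. Among variants with a quality of 50 or more the median was 56 for 7 variants of the 8 genes and 90.5 for all listed ones. Over both lines 6 of 12 lay above the median of their line (cmet, hts, E94D and H95N of Msp300, cana and ninaC), where 48% of all variants did. The highest-ranked was the cana deletion, which shared rank 9 among the 67 variants of sj461 with another variant of equal score, ahead of ninaC (rank 23), shot (36), Klp31E (46) and K8249I of Msp300 (58). Insertions and deletions had higher scores as a class, with a median of 114 over 28, and cana was 1 of 4 deletions among them. The caller is not named, so scores of deletions and of single-base changes may not share a scale. In sj440 the ranks were 27 for cmet, 28 for E94D and H95N, 32 for hts and 54 for T3021S, S568P and A531V, among 68.

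The 8 genes differed in size. Msp300 (106126 bp) had the second longest and shot (77874 bp) the third longest span of the 129 genes, while Klp31E (4975 bp), ninaC (6643 bp), cmet (7977 bp) and cana (8067 bp) were near or below the median of 7977 bp. Of the 15 listed genes that span 50 kb or more, 12 held 1 variant, and Msp300 held the most. Genes with 2 or more variants were Msp300 and Unc-89, 2 of 8, against 24% of the 129.

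Per length of gene, introns included, Msp300 held 0.377 variants per 10 kb and shot 0.128, where shot ranked 128 of the 129 genes and the median gene held 1.42. The other values were 0.359 for hts, 1.07 for Unc-89, 1.24 for cana, 1.25 for cmet, 1.51 for ninaC and 2.01 for Klp31E. Summed over their spans, the 8 genes held 0.465 variants per 10 kb, and all listed genes 0.731. A listed gene has at least 1 variant, so that short genes have a high density by construction. Protein lengths were not used here, and coding length may rank the genes otherwise.

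**Figure D3:**
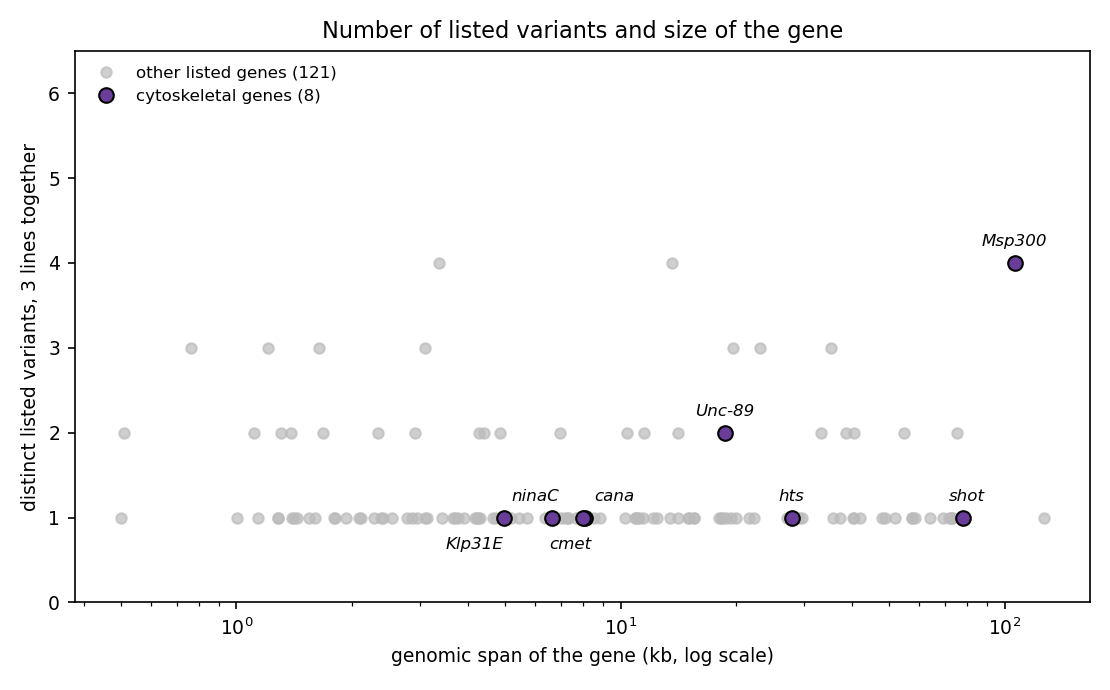
Number of distinct listed variants of each of the 129 genes against its genomic span in kb on a log scale, over the lists of all 3 lines; purple marks the 8 genes and grey the other 121. Msp300 stands at the upper right with 4 variants in 106126 bp, and 6 of the 8 genes hold 1 variant each; cmet and cana overlap.

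The listed variants nearest to a member in another gene of the same line were mostly far away. For the Unc-89 changes it lay in Sox14, at 24850 and 24960 bp, and for cana in l(2)gd1, at 165494 bp. For the other 9 it lay 268607 bp or more away, up to 905326 bp for cmet. The lists are sparse, with 33 variants on 2L and 35 on 2R in sj440, and 33 and 34 in sj461. These distances were not set against those of the other listed variants, so no trait of the 8 genes is read from them.

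Related genes were counted from 6 lists, written with these results known. Of the genes on chromosome 2, the lists held 1 of 11 of the sarcomere and myofibril (Unc-89), 2 of 5 of nuclear anchoring and spectraplakins (Msp300 and shot), 1 of 14 of spectrin and actin regulation (hts), 3 of 11 kinesins (Klp31E, cmet and cana), 1 of 8 myosins (ninaC) and 0 of 5 dyneins and dynactin subunits. All 8 listed genes of the 53 are the members themselves. The other genes are absent from the filtered variant lists, which at unknown depth does not show that they carry no variant. Over chromosome 2, 129 of 5508 protein-coding genes were listed, or 2.34%; nothing is read from the difference, as the lists were made to hold the members.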

How the data were processed

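The deposited data are 1 variant list per line over its samples. The line was taken from the worksheet's name. The submitters' processing notes list STAR 2.5.4b, cutadapt 2.4 and the genome build BDGP6, which is release 6. The caller of the variants and the program that annotated them are not named there or in the labels. The authors deposited a quality score for each variant, with its consequence and transcript. All variants had passed the authors' filter and lay on chromosome 2.

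The 202 entries were merged to 173 distinct variants by line, position and alleles. All 129 symbols matched the RefSeq gene table (Release 6 plus ISO1 MT), 8 of them by a synonym, and each variant fell within its gene in that table. Intervals of shares are exact (Clopper-Pearson) and cover counting error only. The members and lists were chosen with earlier results of these data known; all members are named, and other genes by shortest spacing in sj440 or to give context. The merging, strand and spacing steps were tested on simulated data. The planned protein length from a table was not used here, and the highest listed residue took its place. Python 3.11.15, pandas 2.3.3, scipy 1.17.1, Biopython 1.88 and matplotlib 3.10.9 were used.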

Additional observations from a re-analysis of the deposited data

How the results depend on the processing

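No paired analysis was possible because each line has 1 list and no value per replicate, and leaving out a replicate was not possible for the same reason. The 8 genes held 12 variants, 11 with a quality of 30 or more or with variants within 100 bp counted once, 7 with a quality of 50 or more, 8 without splice sites, 5 without sj440 and 7 without sj461. The high-impact share was 41.7%, against 28.9% of all listed variants. It was 60% against 27.6% without sj440, but 28.6% against 34% without sj461, where it lay below the share of all. Leaving out sj440 or sj461 leaves the variants of the 8 genes in 1 line. Every value of the 8 genes is then that of sj461 or of sj440 alone, while the value of all variants still includes sj266. Within the line, the share of all variants was 20.9% in sj461 and 30.9% in sj440. With a quality of 50 or more the high-impact share of the 8 genes was 57.1% against 29.8%, and without splice sites 12.5% against 2.38%. The median quality was 54.5, near the 55 of all listed variants, but with a minimum of 30 it was 55 against 63, with a minimum of 50 it was 56 against 90.5, and without splice sites 42.7 against 56.5. It was 54 against 56 with near variants counted once, 57 against 61 without sj440 and 54 against 55 without sj461. Leaving out sj266 or A-to-G changes could not move any value of the 8 genes, which held none of either. The high-impact share of all listed variants was then 25.9% without sj266 and 30.1% without A-to-G changes. For Msp300 the changes per 1000 residues of the FBtr0303384 protein were at most 0.485. The limit was 0.364 with a quality of 30 or more or with near variants counted once, and 0.242 with a quality of 50 or more. The last value rests on E94D and H95N, which were numbered on another transcript of unknown protein length. The depth behind each call is unknown. With 12 variants the shares are imprecise.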
